A study of Mus musculus with 8 samples.

Results

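Slco1b2, Wif1, Spp2, Deptor, Osr1 and Enpp2 are 6 of the 2000 genes in a single-cell RNA table of mouse liver tumours, and they were chosen by their own values in these cells, being high together in one state of the tumour cells. Their levels in hepatoma cells and their correlation there are therefore given as a description, with no test. All 6 genes were in the table, and none was lost to a filter on low values. In short, these genes had higher levels in hepatoma than in immune cells and were all lower in the hepatoma cells with high hypoxia genes. In the summed UMIs of set 1, the level of 4 of them was higher in cells with high S phase genes over all hepatoma cells and lower among those with low hypoxia genes, and per-cell means over the 6 sets were less even. Osr1 was also present in fibroblasts. In the summed UMIs of set 1, Slco1b2 was lower with high S phase genes over all hepatoma cells and more so at low hypoxia.

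Hepa1-6 cells, an established hepatoma line of the mouse, formed the tumours, which were dissociated and profiled by droplet-based single-cell sequencing of the 3′ ends of transcripts. The labels give 4 groups: WT tumours with intraperitoneal PBS, WT tumours with intraperitoneal PD1 antibody, and tumours of Soat1-edited cells with each of the same injections. Each group has a cDNA entry and an oligo entry, which makes 8 entries, and the edited line is called KO in the titles and knockdown in the genotype field. Mouse strain, age, the number of tumours per library and whether the edited line is 1 clone are not given in the sources used here.

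The table holds 53528 cells in 6 sets, numbered by the ending of the cell names, of 7569 to 11813 cells. No map ties a set to one of the 4 groups, so the effects of editing and antibody on these genes were not analysed here, and the sets are described as unassigned samples. The cell names carry running numbers and not barcodes, so barcodes shared between sets could not be counted. UMI counts, which count captured molecules, were recovered for set 1 alone, with 1001 to 261833 UMIs a cell and 11098.5 at the median. In set 1 a level is the sum of a gene's UMIs over the cells of a class, scaled to 1000000 UMIs of those cells (CPM), and its 95% interval covers counting error only. Sets 2 to 6 had been altered by a step that is not recorded. They enter only as deposited values on a natural log scale, in means and in correlations within each set.

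Hepatocytes take up bile acids and drugs through carriers on the membrane facing the blood, secrete most plasma proteins, and in the part of the lobule near the central vein are kept in their state by Wnt signals. Slco1b2 encodes such an uptake carrier of the OATP family. Wif1 encodes a secreted protein that binds Wnt ligands, Spp2 a phosphoprotein secreted by the liver that binds bone morphogenetic proteins, and Enpp2 autotaxin, a secreted enzyme that makes the signalling lipid lysophosphatidic acid. Deptor encodes an inhibitor of the growth kinase mTOR, and Osr1 a zinc-finger transcription factor best known from embryonic mesoderm and connective tissue.

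The genes lie on 5 chromosomes, and Enpp2 and Deptor share theirs. In RefSeq's annotation of mouse GRCm38.p6, Spp2 lies on chromosome 1 from 88406966 to 88428300, Slco1b2 on chromosome 6 from 141629452 to 141686646, Wif1 on chromosome 10 from 121034004 to 121100642, and Osr1 on chromosome 12 from 9574442 to 9581500. Enpp2 lies on chromosome 15 from 54838901 to 54952789 and Deptor on the same chromosome from 55112317 to 55259273, with 159527 bases and 5 annotated genes between them. Of these 5 genes, 2 code for proteins, Taf2 and Dscc1.

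Promoter sequences are shown for the 3 genes that name the state, because their levels moved together in the tumour cells. They are the stretches just upstream of the annotated gene start in RefSeq's GRCm38.p6 promoter table, on the plus strand, written 5′ to 3′, and 3 of the 6 genes matched an entry in it. The Slco1b2 stretch is chr6:141629268-141629451, the Wif1 stretch chr10:121033754-121034003 and the Spp2 stretch chr1:88406760-88406965. Capitals mark matches to 4 short motifs searched on both strands: the HNF1 motif GTTAAT, the TCF/LEF core CTTTGA, the hypoxia response element core ACGTG and the nuclear receptor motif AGGTCA.
Slco1b2: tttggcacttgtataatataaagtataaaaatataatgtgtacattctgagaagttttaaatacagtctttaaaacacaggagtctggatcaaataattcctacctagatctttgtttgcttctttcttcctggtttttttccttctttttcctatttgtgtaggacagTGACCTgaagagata
Wif1: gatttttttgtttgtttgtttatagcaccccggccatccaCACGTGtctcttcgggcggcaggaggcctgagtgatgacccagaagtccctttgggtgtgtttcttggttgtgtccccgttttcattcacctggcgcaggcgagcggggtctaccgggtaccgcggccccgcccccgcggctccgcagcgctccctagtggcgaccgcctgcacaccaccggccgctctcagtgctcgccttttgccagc
Spp2: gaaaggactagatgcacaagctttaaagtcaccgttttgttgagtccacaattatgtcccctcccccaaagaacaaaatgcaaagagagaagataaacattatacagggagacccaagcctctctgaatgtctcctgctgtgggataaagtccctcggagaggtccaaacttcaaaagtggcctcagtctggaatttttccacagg

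No motif was found in all 3 stretches. Slco1b2 held 1 nuclear receptor motif, read as its reverse complement, a match that 10.5% of 32851 promoter stretches of the same length also hold. Wif1 held the hypoxia core as CACGTG, in which the 2 strands' matches overlap, and 16.6% of stretches of its length hold that core. The Spp2 stretch held none of the 4 motifs. The HNF1 motif was in 4.90% to 6.43% and the TCF/LEF core in 11.1% to 13.8% of all stretches of the 3 lengths. A match is a string of letters and not a binding site, and the lack of one covers only these windows.

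Cells were sorted into classes by summed marker genes that exclude the 6 genes. Over the 6 sets, 28850 cells (53.9%) were hepatoma cells, 20767 (38.8%) immune cells, 741 fibroblasts and 23 endothelial cells, and 3147 fell in no class. In set 1, after 91 called doublets were left out, the 17 hepatoma markers in the table summed to 18939 CPM in 6436 hepatoma cells and 2547 CPM in 2280 immune cells, while 6 pan-immune markers summed to 35.9 and 4142 CPM. The median cell had 17736.5 UMIs among hepatoma cells and 3569.5 among immune cells.

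All 6 genes were at least 2-fold higher in hepatoma than in immune cells of set 1, beside 31.4% of all genes tested. The median log2 ratio of the 6 was 2.94, against 0.10 over all 1791 genes tested, on CPM plus a pseudocount of 1. This contrast is close to what chose the genes, so nothing is read from the count.

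Slco1b2, the uptake carrier, was at 49.5 CPM (48.4 to 50.6) in hepatoma cells and 5.17 (3.96 to 6.64) in immune cells, a ratio of 9.57 (7.44 to 12.5). Wif1, the Wnt antagonist, was at 160 CPM (158 to 162) and 13.4 (11.4 to 15.7), a ratio of 11.9 (10.2 to 14.1). These intervals lie far apart in both cases. Spp2, the secreted phosphoprotein, was at 449 CPM (445 to 452) and 61.2 (56.8 to 65.9), a ratio of 7.33 (6.81 to 7.90). Enpp2, the lysophosphatidic acid enzyme, was at 62.9 CPM (61.6 to 64.2) and 12.8 (10.8 to 15), a ratio of 4.91 (4.18 to 5.81). Spp2 and Enpp2 thus kept a larger level in the immune class, relative to the tumour cells, than Wif1 did. Deptor, the mTOR inhibitor, was at 89.2 CPM (87.7 to 90.7) and 15.6 (13.4 to 18), a ratio of 5.72 (4.94 to 6.65). Osr1, the transcription factor, was at 57.4 CPM (56.2 to 58.6) and 5.94 (4.63 to 7.5), a ratio of 9.66 (7.64 to 12.4).

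The levels in immune cells were of the size that hepatoma markers as a whole had there. The hepatoma markers were 7.44 times higher in hepatoma than in immune cells, inside the span of 4.91 to 11.9 of the 6 genes. These markers also gated both classes, so their ratio was partly set by the gate. A UMI of Spp2 was present in 83.7% of hepatoma cells and 24.5% of immune cells, and after each cell was thinned to 5000 UMIs, which kept 5893 and 840 cells, in 65.9% and 26.5%. Its share in T cells was 26.1% at the same depth. Among the 800 UMIs that T cells held of the 6 genes, Spp2 made up 56.4% (52.9 to 59.8) and Osr1 5.50% (4.02 to 7.31). Their shares of the 130656 UMIs in hepatoma cells were 51.7% and 6.61%. Wif1 made up 12.25% (10.1 to 14.7) in T cells and 18.4% in hepatoma cells, and Enpp2 11.75% (9.60 to 14.2) and 7.25%. Slco1b2 made up 4.00% (2.75 to 5.60) and 5.70%, and Deptor 10.1% (8.12 to 12.4) and 10.3%. The part of free RNA in the immune values was not tested.

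**Figure D1:**
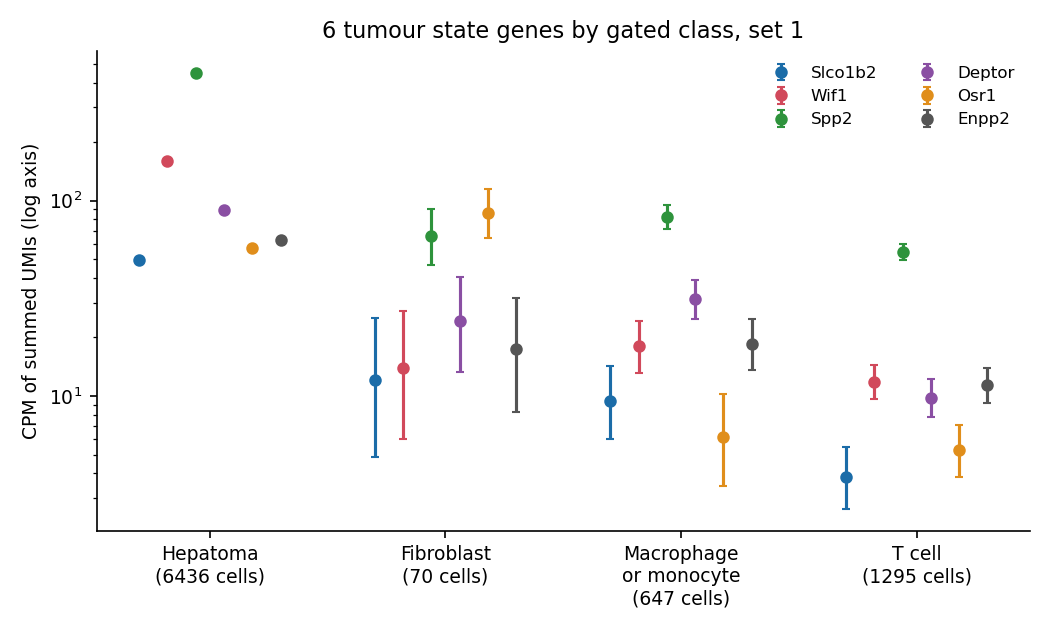
Level of each gene (CPM of summed UMIs, log axis) in 4 gated classes of set 1, with exact Poisson 95% intervals; intervals narrower than the point are hidden by it. Spp2 stood at 449 CPM in hepatoma cells, and Osr1 at 57.4 CPM there and 86.5 CPM in the 70 fibroblasts.

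In each of the 6 sets the hepatoma mean was above the immune mean for each gene. The mean deposited value of Wif1 in hepatoma cells was 0.389 at the lowest, 0.573 at the median and 0.629 at the highest set, and 0.0715, 0.0753 and 0.0915 in immune cells. For Spp2 the hepatoma values were 1.01, 1.17 and 1.24 and the immune values 0.262, 0.283 and 0.299. For Slco1b2 they were 0.152, 0.206 and 0.266, and 0.0194, 0.0264 and 0.0335. The 2 classes did not overlap over the 6 sets for any of these genes. This contrast is close to what chose the genes, and the share of all genes without overlap was not computed. Nothing is therefore read from the lack of overlap. Deptor ran from 0.362 to 0.479 in hepatoma and from 0.0648 to 0.0854 in immune cells, Osr1 from 0.166 to 0.289 and from 0.0222 to 0.0430, and Enpp2 from 0.204 to 0.285 and from 0.0392 to 0.0627. Set 4 had the lowest hepatoma mean of all 6 genes, and it was also the set with the lowest share of hepatoma cells, 33.3%.

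Osr1 was also found in the fibroblasts, cells gated by collagens and other matrix genes. Its level was at 86.5 CPM (64.2 to 114, from 50 UMIs) in the 70 fibroblasts of set 1, which is 1.51 times (1.12 to 1.99) the hepatoma level and 14.6 times (9.93 to 21.3) the immune level. The other 5 genes were lower in fibroblasts than in hepatoma cells, with ratios from 0.0865 (0.0373 to 0.170) for Wif1 to 0.275 (0.132 to 0.506) for Enpp2. Osr1 made up 39.4% (30.8 to 48.4) of the UMIs of the 6 genes in fibroblasts and 6.61% in hepatoma cells. The fibroblasts held 2988 CPM of hepatoma markers, of which 3 of 17 were at 0, and 38186 CPM of fibroblast markers.

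A UMI of Osr1 was found in 20 of the 70 fibroblasts, 28.6% (18.4 to 40.6), and in 3.03% (2.36 to 3.81) of immune cells. The median fibroblast had 6771.5 UMIs. At 5000 UMIs a cell, the share was 16.7% of 42 fibroblasts, 2.26% of immune cells and 18.7% of hepatoma cells. The fibroblast share therefore lay above that of immune cells, and its interval at that depth, 6.97 to 31.4%, included the hepatoma share. Over the 6 sets the mean deposited Osr1 value in fibroblasts was 0.211 at the lowest, 0.351 at the median and 0.469 at the highest, against 0.166, 0.264 and 0.289 in hepatoma cells. Fibroblasts were above hepatoma cells in 5 sets and below them in set 3, with a difference of -0.0645, and above the immune cells in 6 of 6 sets.

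Within the immune cells, Deptor had the highest ratio of macrophages over T cells among the 6 genes, with an interval that overlaps that of Slco1b2. It was at 31.2 CPM (24.6 to 39.1, from 76 UMIs) in 647 macrophages or monocytes and 9.75 CPM (7.74 to 12.1, from 81 UMIs) in 1295 T cells, a ratio of 3.20 (2.31 to 4.43). The same ratio was 1.52 (1.28 to 1.80) for Spp2, 1.53 (1.05 to 2.21) for Wif1, 1.63 (1.12 to 2.35) for Enpp2, 1.16 (0.601 to 2.13) for Osr1 and 2.45 (1.37 to 4.32) for Slco1b2. Hepatoma markers summed to 3570 CPM in the macrophages and 2194 CPM in the T cells. Deptor made up 18.8% (15.1 to 23.0) of the UMIs of the 6 genes in macrophages, 10.1% (8.12 to 12.4) in T cells and 10.3% in hepatoma cells. In each of the 6 sets the mean deposited Deptor value was higher in macrophages, by 0.0355 to 0.0874. The same held in 6 of 6 sets for Slco1b2, by 0.0138 to 0.0320, for Wif1, by 0.0135 to 0.0621, and for Spp2, by 0.0662 to 0.161.

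Among the classes below the hepatoma cells, some neighbours in the order overlapped. For Spp2, the macrophages at 82.6 CPM (71.6 to 94.8) and the fibroblasts at 65.7 (46.5 to 90.2) had overlapping intervals, as did the fibroblasts and the T cells at 54.3 (49.4 to 59.5), while the macrophages and the T cells did not overlap. Wif1 stood at 18.1 CPM (13.1 to 24.3) in macrophages, 13.8 (5.98 to 27.3) in fibroblasts and 11.8 (9.58 to 14.4) in T cells, which overlap throughout. Enpp2 stood at 18.5 CPM (13.5 to 24.7), 17.3 (8.30 to 31.8) and 11.3 (9.15 to 13.8) in the same order. Only 9 endothelial cells were gated in set 1, and their Enpp2 level of 108 CPM (43.5 to 223) rests on 7 UMIs in 2 of the cells.

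Within the hepatoma cells the 6 genes were unevenly spread. The tenth of cells with the most UMIs of a gene held 76.1% of all Slco1b2 UMIs, 70.5% of Enpp2, 59.8% of Osr1, 56.2% of Wif1 and 49.3% each of Spp2 and Deptor. No Slco1b2 UMI was seen in 4603 of the 6436 cells, and the highest cell had 55. At 5000 UMIs a cell, the variance of the count was 3.33 times its mean for Spp2, 2.56 for Wif1, 2.52 for Slco1b2, 2.08 for Enpp2, 1.45 for Deptor and 1.44 for Osr1, where random sampling of equal cells gives a value near 1.

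The strongest gradient measured was along hypoxia, scored by 11 genes that low oxygen is known to induce, among them Slc2a1, Bnip3 and Ndrg1. In the quartile of set 1 hepatoma cells with the highest score, all 6 genes were at least 2-fold below the quartile with the lowest score, each of 1609 cells. Of all 1619 genes tested, 20% were lower by that much. The median log2 ratio of the 6 was -2.10, against -0.06 over all genes.

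Osr1 changed most, from 97.5 CPM (94.4 to 101) in the lowest quartile to 12.4 (11.2 to 13.6) in the highest, a ratio of 0.127 (0.114 to 0.140). Enpp2 went from 104 CPM (101 to 107) to 18.8 (17.4 to 20.3), a ratio of 0.181 (0.166 to 0.197). Wif1 went from 234 CPM (229 to 239) to 49.2 (46.8 to 51.6), a ratio of 0.210 (0.199 to 0.221). These 3 genes had the lowest ratios of the 6. Slco1b2 went from 68.7 CPM (66.1 to 71.3) to 16.9 (15.5 to 18.3), a ratio of 0.246 (0.224 to 0.269). Spp2 went from 612 CPM (604 to 620) to 163 (159 to 167), a ratio of 0.266 (0.258 to 0.274). Deptor changed least, from 119 CPM (115 to 122) to 35.4 (33.4 to 37.5), a ratio of 0.298 (0.279 to 0.317).

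Each gene went down at every step from the first to the fourth quartile, and as a ratio the last step was the steepest. Wif1 stood at 234, 204, 130 and 49.2 CPM over the 4 quartiles and Osr1 at 97.5, 71.5, 38.3 and 12.4. Slco1b2 stood at 68.7, 63.7, 41.7 and 16.9 CPM. In the highest quartile, Osr1, Slco1b2 and Enpp2 were at 12.4, 16.9 and 18.8 CPM, beside 5.94, 5.17 and 12.8 CPM in immune cells.

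**Figure D2:**
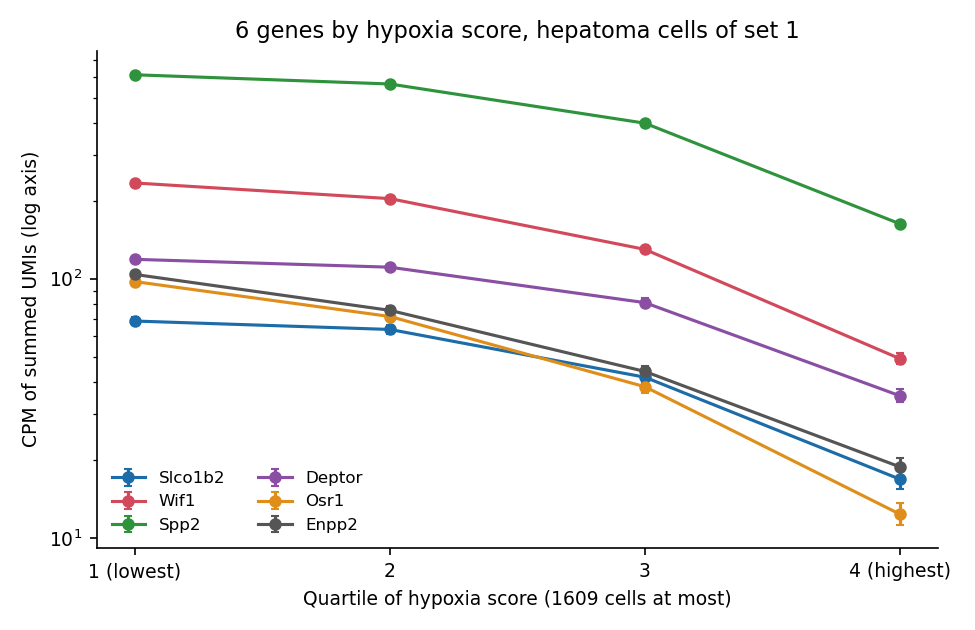
Level of each gene (CPM of summed UMIs, log axis) in the 4 quartiles of the hypoxia score, set 1 hepatoma cells, with exact Poisson 95% intervals. All 6 lines go down at each step, Spp2 from 612 to 163 CPM and Osr1 from 97.5 to 12.4 CPM.

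Other readouts moved with this gradient. The most hypoxic quartile had 460 CPM of G2M genes against 3226, 355 CPM of S phase genes against 1323, and 14217 CPM of mitochondrially encoded transcripts against 20381. Its hepatoma markers were higher, at 19370 against 15393 CPM, and its immune markers were at 37.2 against 34.1 CPM. The median depth was 15669 against 18171 UMIs. At 5000 UMIs a cell, Wif1 was at 234 CPM in the lowest and 48.1 CPM in the highest quartile. Among cells at or below the median of both cell cycle scores, the median log2 ratio of the 6 genes was -2.85, an alternative chosen after the data had been seen. The part of mitochondrial content in the gradient was not tested.

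The hypoxia difference had the same sign in 6 of 6 sets for each gene. The share of all genes with the same sign in 6 of 6 sets was not computed. The difference in mean deposited value, highest minus lowest quartile, was -0.783 to -0.351 for Spp2, -0.616 to -0.292 for Wif1 and -0.381 to -0.187 for Deptor. For Osr1 it was -0.374 to -0.156, for Enpp2 -0.330 to -0.121 and for Slco1b2 -0.284 to -0.111. Set 1 or set 2 had the lowest value for each gene and set 4 or set 6 the one nearest to 0.

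**Figure D3:**
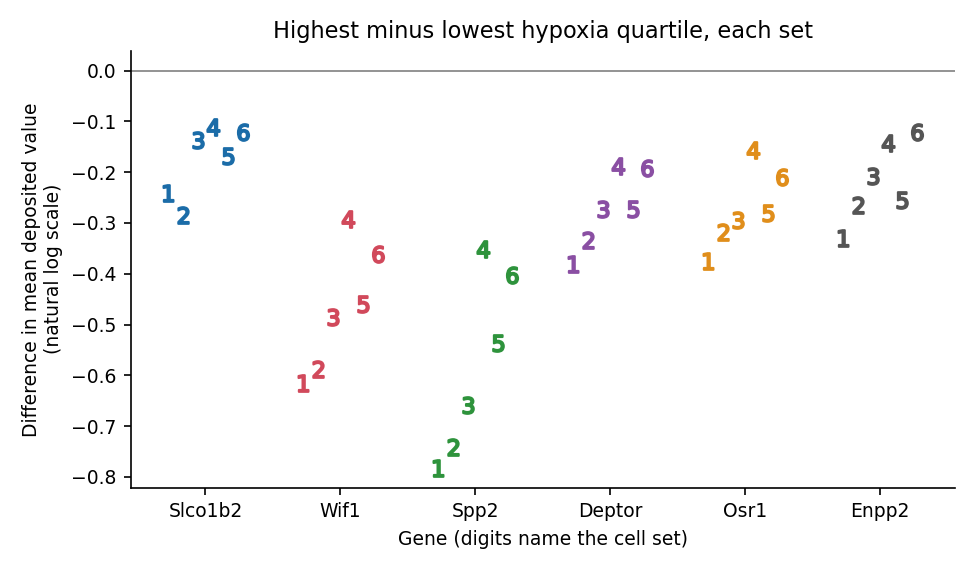
Difference in mean deposited value (natural log scale) between the highest and lowest hypoxia quartile of hepatoma cells, for each gene and each of the 6 sets, marked by the set's number. All 36 values lie below 0, from -0.783 for Spp2 in set 1 to -0.111 for Slco1b2 in set 4.

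Most secreted liver proteins did not follow the 6 genes along hypoxia. Of 26 secreted liver proteins, 10 were at least 2-fold higher in the most hypoxic quartile, beside 12.2% of all genes tested, and 1, Ttr, the thyroxine carrier transthyretin, was lower, with a log2 ratio of -1.74. Serpina1d, an alpha-1 antitrypsin gene, had a log2 ratio of 2.98, though reads of the near-identical Serpina1 copies can be split uncertainly. Alb, serum albumin, had a log2 ratio of 0.17 and Afp, alpha-fetoprotein, one of 0.44.

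Among 14 genes of the Wnt list in the table, 9 had enough UMIs for the hypoxia contrast, and 4 were at least 2-fold lower and none higher, beside 20% and 12.2% of all genes tested. They were Notum, a secreted enzyme that inactivates Wnt ligands, at -2.48, Nkd1, an inhibitor inside the cell, at -2.34, Ccnd1, cyclin D1, at -2.09, and Cyp1a2, a cytochrome of the central-vein zone, at -1.93. Axin2, the scaffold that is a common readout of Wnt signalling, stood at -0.27 and Glul, glutamine synthetase, at -0.80. Dkk2 and Sfrp2, also secreted Wnt antagonists, stood at -0.02 and 0.14 on few UMIs, 20 and 24 for Dkk2 and 12 and 9 for Sfrp2 in the highest and lowest quartile. The list's median was -0.80.

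The lists around the other members were mixed. Of 10 genes of mTOR and amino acid stress tested beside Deptor, 5 were at least 2-fold higher in the most hypoxic quartile and 1 lower, beside 12.2% and 20% of all genes tested, with Ddit3, a stress transcription factor, at 2.69, Ddit4, another mTOR inhibitor, at 2.07 and Asns, asparagine synthetase, at -1.05. The 2 mTOR inhibitors Deptor and Ddit4 stood on opposite sides. Of 11 genes of BMP and TGF-beta signalling, 2 were higher and 3 lower by that much, beside the same 12.2% and 20%, with Spp1 at 2.12, Bmp4 at 1.20, Tgfbi, a TGF-beta-induced matrix protein, at -1.50, Fst, follistatin, at -1.44 and Id3 at -1.25. Of 3 carriers tested beside Slco1b2, Slco2a1, a prostaglandin carrier, was higher at 1.29 and none was lower. Of the lysophosphatidic acid list, Plpp3, which degrades that lipid, stood at -0.32 and Enpp3 at 0.05.

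The cell cycle result differed with the hypoxia score. Taken over all hepatoma cells of set 1, 5 of the 6 genes were higher in the quartile with the highest S phase score than in the lowest, and 1 of them, Osr1, at least 2-fold, beside 10% of the 1620 genes tested. The median log2 ratio was 0.53, against 0.01 over all genes tested. Among cells at or below the median hypoxia score, called low-hypoxia cells here, the median of the 6 was -0.39. Among the others, called high-hypoxia cells, it was 0.33. Over all genes tested the medians in these groups were -0.06 and 0.12. Both groups were examined after the data had been seen.

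Osr1 was at 75.5 CPM in the highest and 36.5 in the lowest S phase quartile, a ratio of 2.07 (1.93 to 2.23), but in low-hypoxia cells at 79.9 and 88.3 CPM, a ratio of 0.904 (0.840 to 0.974). Wif1 was at 187 and 126 CPM over all cells, a ratio of 1.48 (1.43 to 1.55), and at 194 and 259 CPM in low hypoxia, a ratio of 0.750 (0.717 to 0.784). Spp2 had ratios of 1.41 (1.37 to 1.44) and 0.772 (0.751 to 0.794), and Deptor of 1.37 (1.30 to 1.45) and 0.698 (0.657 to 0.742). In summed UMIs the direction turned for these 4 genes. As per-cell means of deposited values in the same low-hypoxia cells of set 1, it turned for Spp2 (-0.0533) and Deptor (-0.128). It did not turn for Wif1 (0.00389) and Osr1 (0.0506). Enpp2 kept a ratio above 1, with 1.90 (1.78 to 2.04) over all cells and 1.12 (1.04 to 1.20) in low hypoxia.

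In the summed UMIs of set 1, Slco1b2 went the other way from the start. It was at 43.2 CPM in the highest and 54.1 in the lowest S phase quartile, a ratio of 0.797 (0.745 to 0.854). In low-hypoxia cells it was at 46 and 133 CPM, a ratio of 0.345 (0.320 to 0.372), past a 2-fold difference beside 5.01% of 1458 genes. Among these S phase groups, the carrier had its highest level in cells low for both S phase and hypoxia. In high-hypoxia cells it was at 26.3 and 28.9 CPM, a ratio of 0.908 (0.790 to 1.04), an interval that includes 1. As a mean over all hepatoma cells on the deposited scale, Slco1b2 was lower with high S phase scores in 5 of 6 sets, with differences from -0.0505 to 0.0106. The exception was set 1, at 0.0106, the same set whose summed UMIs gave the ratio of 0.797.

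The G2M score, of genes used in mitosis, gave the same pattern. Over all hepatoma cells no member was 2-fold higher, beside 9.92% of 1623 genes, and the median log2 ratio was 0.42, with Osr1 at 1.84 (1.72 to 1.97), Enpp2 at 1.57 (1.47 to 1.67), Spp2 at 1.37 (1.34 to 1.41), Wif1 at 1.31 (1.26 to 1.36) and Deptor at 1.22 (1.16 to 1.29) as ratios. In low-hypoxia cells all 6 ratios were below 1 and the median log2 ratio was -0.43, against -0.08 over all genes tested. Slco1b2 was then lowest, at 44.5 against 134 CPM, a ratio of 0.333 (0.310 to 0.358), and passed a 2-fold difference beside 4.46% of 1458 genes. In high-hypoxia cells the median log2 ratio was 0.43, against 0.15 over all genes tested. Slco1b2 had a ratio of 1.02 (0.890 to 1.17) there, an interval that includes 1.

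**Figure D4:**
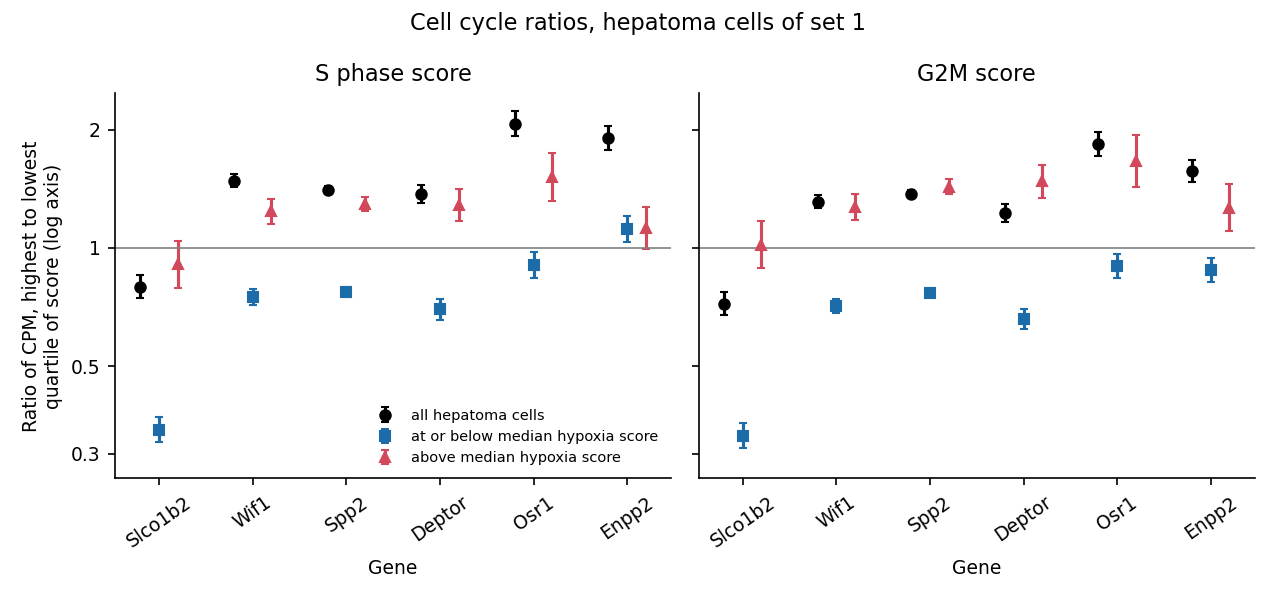
Ratio of CPM between the highest and lowest quartile of the S phase score (left) and G2M score (right), log axis, for set 1 hepatoma cells as a whole (circles), those at or below the median hypoxia score (squares) and those above it (triangles), with exact 95% intervals. The squares lie below 1 in 11 of 12 cases, Enpp2 in S phase at 1.12 being the exception, and Slco1b2 reaches 0.333. Over all genes tested in these low-hypoxia cells, the median log2 ratio was -0.06 for S phase and -0.08 for G2M.

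The compared quartiles differed in more than their cycle score. Over all cells, the highest S phase quartile had 1253 CPM of hypoxia genes against 4609 in the lowest, and in low-hypoxia cells 1019 against 1195. Median depth was 26467 against 11397 UMIs, and 28561 against 10969 in low-hypoxia cells. Per-cell means of deposited values weigh each cell equally and are on a log scale. They gave a less even picture in low hypoxia. On the deposited scale Slco1b2 and Deptor were lower in cells high for S phase or G2M in 6 of 6 sets, and Spp2 in 5 of 6. Wif1 was lower in 6 of 6 sets for G2M and 4 of 6 for S phase, Osr1 in 3 of 6 for both, and Enpp2 was higher in 6 of 6 for S phase and 5 of 6 for G2M. For G2M in set 1, Osr1 was higher by 0.0219 and Enpp2 by 0.0209, though their ratios of summed UMIs were below 1. After thinning to 5000 UMIs a cell, the median log2 ratios over all set 1 hepatoma cells were 0.53 for S phase and 0.43 for G2M. Slco1b2 was then at -0.175 and -0.391, and Deptor at 0.309 and 0.119. The part of depth in these cell cycle differences was not tested.

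Fabp1 encodes the liver fatty acid binding protein, a mark of differentiated hepatocytes. A deposited Fabp1 value above 0.5 was found in 404 hepatoma cells of set 1, which were compared with the other 6032. None of the 6 genes was 2-fold higher or lower, beside 11% and 2.73% of 1797 genes, and their median log2 ratio was -0.08. The members parted company here. Slco1b2 was at 88.1 CPM (81.7 to 94.9) against 47.3 (46.2 to 48.5), a ratio of 1.86 (1.72 to 2.01), and Spp2 at 633 against 439 CPM, a ratio of 1.44 (1.40 to 1.49). Enpp2 was at 45.3 against 63.9 CPM, a ratio of 0.710 (0.637 to 0.789), and Wif1 at 129 against 162 CPM, a ratio of 0.801 (0.751 to 0.852). These values moved towards 0 when any Fabp1 UMI counted as high, with log2 ratios going from 0.88 to 0.13 for Slco1b2, from 0.53 to 0.17 for Spp2, from -0.49 to -0.14 for Enpp2 and from -0.32 to -0.14 for Wif1.

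Deptor and Osr1 were near 1, with ratios of 0.996 (0.922 to 1.08) and 0.893 (0.807 to 0.987), and the sign for Osr1 turned when cells were weighted equally, to a log2 ratio of 0.0030. Over the 6 sets, Spp2 and Slco1b2 were higher in Fabp1-high cells in 6 of 6, by 0.321 to 0.741 and 0.0922 to 0.182 on the deposited scale, and Enpp2 was lower in 6 of 6, by -0.0714 to -0.0210. Wif1 was lower in 4 of 6. Deptor was higher in 6 of 6, by 0.0214 to 0.117, and Osr1 in 5 of 6, with differences from -0.000972 to 0.103. Of the 26 secreted liver proteins, 21 were at least 2-fold higher in the same cells, so the 2 liver-typical members moved in their direction but less. Hepatoma markers were at 37800 against 17895 CPM in these cells, and median depth at 13018 against 18303.5 UMIs.

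The 6 genes were correlated across hepatoma cells, which is part of why they were chosen. These cells share a library, a range of depth and free RNA within a set, so Pearson's r is a description. Over the 15 pairs, the median of the set medians was 0.350. Wif1 and Spp2 had the highest value, 0.534 (0.490 to 0.579 over the 6 sets), followed by Wif1 and Osr1 at 0.484 and Spp2 and Osr1 at 0.458. Slco1b2 and Enpp2 had the lowest, 0.121 (0.0928 to 0.198).

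By the median over sets, Enpp2 was the loosest member. Its 5 pairs had medians from 0.121 to 0.223, below the 10 pairs without it, which ran from 0.273 to 0.534. In set 1 alone the pairs with and without Enpp2 overlapped, with Wif1 and Enpp2 at 0.330 and Slco1b2 and Osr1 at 0.260. Enpp2 and Deptor, the neighbours on chromosome 15, had an r of 0.169, with 0.273 in set 1 as its highest set.

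The correlation was also computed under other settings. Thinning adds sampling noise and also gives every cell the same depth, and the part of each in r was not tested. In set 1 hepatoma cells, r with the log UMI total ran from 0.0570 for Slco1b2 to 0.220 for Spp2. In set 1 the median over pairs was 0.360 as deposited, 0.204 after thinning to 5000 UMIs a cell, 0.350 among cells between the first and the third quartile of UMI totals and 0.273 after the hypoxia score and log depth had been removed by regression. It was 0.330 within the lowest hypoxia quartile and 0.167 within the highest. All 15 pairs stayed above 0 in each of these.

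**Figure D5:**
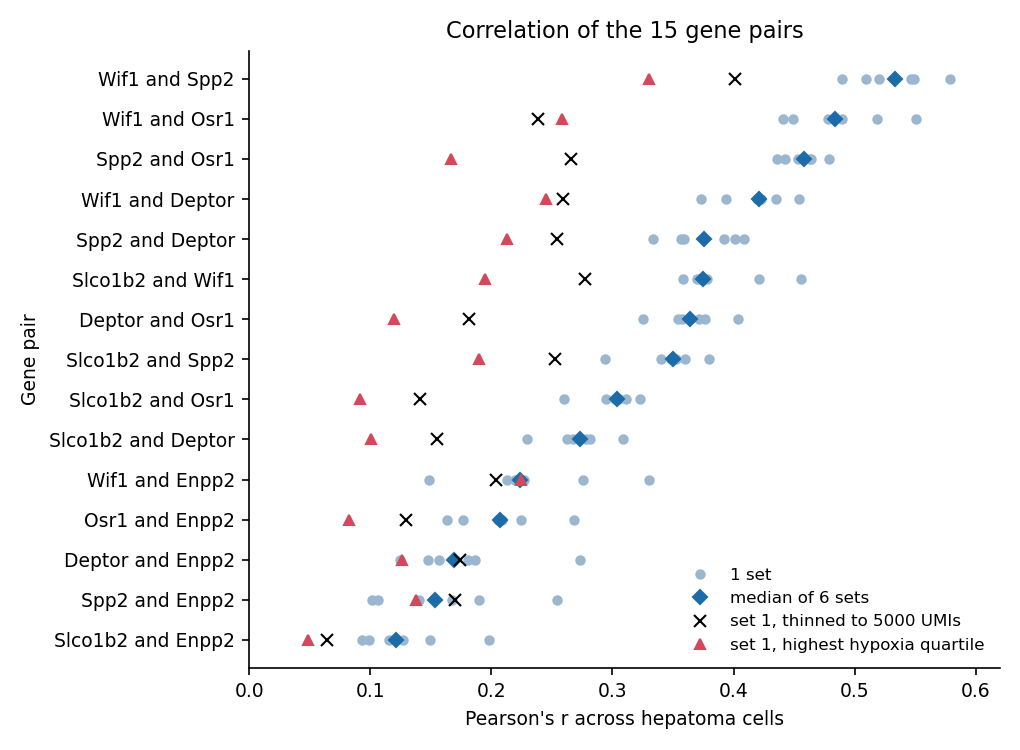
Pearson's r across hepatoma cells for the 15 gene pairs in each of the 6 sets (light circles), with the median of sets (diamonds), set 1 thinned to 5000 UMIs (crosses) and the highest hypoxia quartile of set 1 (triangles). Wif1 and Spp2 lead with a median of 0.534, and the 5 pairs with Enpp2 stand at the bottom, between 0.121 and 0.223.

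Detection in the same cell followed the same lines. At 5000 UMIs a cell, Slco1b2 was detected in 26.6% (24.8 to 28.6) of 2126 cells with a Wif1 UMI and in 9.13% (8.23 to 10.1) of 3767 cells without one. Osr1 was detected in 24.0% (22.7 to 25.4) of cells with Spp2 and 8.47% (7.28 to 9.77) of cells without. At least 4 of the 6 genes were detected in 28.4% of 1371 cells of the lowest hypoxia quartile and in 1.56% of 1539 cells of the highest. None of the 6 was detected in 8.17% and 37.4% of these cells.

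The genes whose values were most like those of the 6, by the median r over members and sets, were Ttr at 0.419 and Tgfbi at 0.417. Ttr was also among the markers that gated the hepatoma cells. They were followed by Bche, butyrylcholinesterase, at 0.390, Ffar2, a receptor of short-chain fatty acids, at 0.367, Gsta3, a glutathione transferase, and Cpd, carboxypeptidase D, at 0.358 each, Ifitm3, an interferon-induced membrane protein, at 0.354 and Notum at 0.352. Of 1994 genes 3.61% had a value above 0.2, and 4 of 14 genes of the Wnt list did: Notum, Cyp1a2 at 0.290, Nkd1 at 0.260 and Glul at 0.249. So did 4 of 26 secreted liver proteins: Ttr, Apoe at 0.256, Alb at 0.215 and Trf at 0.203. Alb and Trf were gating markers too. Of 14 genes of the BMP and TGF-beta list, 1 did, Tgfbi. The lowest values were those of Pgk1, a glycolytic enzyme, at -0.243, the glucose carrier Slc2a1 at -0.242, Tmsb10, thymosin beta 10, at -0.241, the mitophagy gene Bnip3 at -0.232 and Rnf128, a ubiquitin ligase, at -0.222.

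The closest genes differed between members. For Wif1 they were Tgfbi at 0.560, Ttr at 0.550 and Bche at 0.488, and for Osr1 the same 3 genes at 0.436, 0.434 and 0.408. For Spp2 they were Ttr at 0.615, Agt, angiotensinogen, at 0.496 and Akr1c6, a steroid-reducing enzyme, at 0.481. For Deptor they were Tgfbi at 0.418, Bche at 0.376 and Cpd at 0.366. Slco1b2 and Enpp2 had lists that shared no gene: Car2, a carbonic anhydrase, at 0.393, Prlr, the prolactin receptor, at 0.372 and Ttr at 0.368 for Slco1b2, and Tgfbi at 0.297 with the Wnt inhibitors Notum at 0.275 and Nkd1 at 0.243 for Enpp2.

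Genes of other tumour states did not follow the 6. Over Ppbp, Anxa1, Tff2, Ndrg1, Bnip3, Slc2a1 and Ero1l the median of the likeness values was -0.201 and none was above 0. Ndrg1, Bnip3, Slc2a1 and Ero1l are genes of the hypoxia score, so this median is not separate from the hypoxia gradient. Ppbp, Anxa1 and Tff2 were listed as genes of another tumour state, with earlier results of these data known. Nothing is therefore read from their low values. Tff2, trefoil factor 2, was at -0.191 and Anxa1, annexin A1, at -0.093. Ppbp, a platelet chemokine, was at -0.016, near the median of -0.002 over all genes. Of these 3, none reached a 2-fold difference along hypoxia, with log2 ratios of 0.44, -0.29 and 0.01.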

How the data were processed

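The deposited table holds 2000 genes by 53528 cells on a natural log scale. In set 1 each deposited value equals the natural log of 1 plus a gene's UMIs per 10000 of its cell, which was checked on the values: every UMI total was recovered (tolerance 1e-06) and 100% of nonzero values became whole counts (tolerance 0.01). The 2000 genes hold 15% of the UMIs. STAR 2.7.2b and the builds GRCh38 and mm10 are named per the submitters' processing notes. All 53528 columns lack a sample label, so no p-value was computed. The members, gene lists and alternatives were chosen with earlier results of these data known.

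Classes were gated by mean deposited marker values: hepatoma cells above 0.6 for hepatoma markers and below 0.3 for pan-immune markers and 0.5 for fibroblast or endothelial markers, immune cells above 0.6 for pan-immune and below 0.9 for hepatoma markers, with subclasses above 0.4, and fibroblasts above 1. Scrublet, run through scanpy 1.11.5 at an expected rate of 6%, marked 91 of 9370 set 1 cells as doublets, which were left out. Scores are mean deposited values of 18 S phase, 26 G2M and 11 hypoxia genes. Ratios are of summed UMIs with exact conditional binomial 95% intervals, CPM has exact Poisson and shares have Clopper-Pearson intervals. Genes with 20 UMIs or more were tested. Log2 ratios carry a pseudocount of 1 CPM, and 2-fold means a log2 ratio past 1. Fabp1 quartiles could not be formed, since most cells were at 0, so a cut at 0.5 was used. Named genes are the 6 members, list genes, the 3 closest genes per member, and the 8 highest and 5 lowest by likeness. The ratio and depth calculations were tested on simulated data.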

Additional observations from a re-analysis of the deposited data

How the results depend on the processing

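No paired analysis was possible because no column carries a replicate number or a group. Of 49 alternative values of the medians, 39 moved by less than their error, 8 moved further and 2 were counted as changed in sign. Of 210 alternative values for single genes, the counts were 127, 71 and 12. The Fabp1 median, whose interval of -0.214 to 0.0425 included 0, also crossed 0 but was not counted as changed in sign. The cell cycle medians changed sign among cells at or below the median hypoxia score, from 0.53 to -0.39 for S phase (Wif1 -0.41, Spp2 -0.37, Deptor -0.51, Osr1 -0.14) and from 0.42 to -0.43 for G2M (Wif1 -0.49, Spp2 -0.38, Deptor -0.60, Osr1 -0.15, Enpp2 -0.18). Above it they were 0.33 and 0.43, where the G2M value of Slco1b2 was 0.0270, a ratio of 1.02 whose interval (0.890 to 1.17) includes 1. The Fabp1 value of Osr1 was 0.00295 as a mean over cells and 0.0228 when any UMI counted as high. The Fabp1 median moved from -0.08 to 0.0632 after thinning and to 0.0148 as a mean over cells. The hepatoma median was 2.52 as a mean over cells. The hypoxia median was -1.19 for cells above against below the median score, which compares less extreme cells, and -2.85 among cells low in both cycle scores. The median pair correlation was 0.388 as Spearman's rho, 0.204 after thinning, 0.273 after regression and 0.348 to 0.352 leaving out each set in turn. The causes of these shifts were not tested. Counting error is small for hepatoma cells and limits the 70 fibroblasts and 9 endothelial cells.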

Other observations

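Genes of MHC class II, which present peptides to CD4 T cells, varied with the 6 genes in the hepatoma cells. They were chosen after their values were seen. The median r with the 6 genes was 0.244 for H2-Eb1, 0.219 for Cd74, the invariant chain, 0.218 for H2-Ab1 and 0.199 for H2-Aa. Along hypoxia their log2 ratios were -2.04, -1.50, -1.72 and -1.86. Their levels in hepatoma cells were 137 to 378 CPM, and they were higher in immune cells, with log2 ratios of hepatoma over immune cells from -1.97 to -1.08. Over 8 other immune genes (Tyrobp, Ptprc, C1qa, Lyz2, Fcer1g, Laptm5, Coro1a and Cd52), r ran from -0.0237 for C1qa to 0.0102 for Ptprc. Their levels in the same hepatoma cells ran from 1.81 CPM for Tyrobp to 16.1 CPM for C1qa. All of the 8 but C1qa and Lyz2 are the pan-immune markers that the gate required to be low in hepatoma cells. The low levels and r of those markers were therefore partly set by the gate. Along hypoxia 3 of the 8 had log2 ratios below 0, Lyz2 at -0.48, C1qa at -0.12 and Fcer1g at -0.06, and the highest was Tyrobp at 0.24. The part of immune RNA in the MHC class II values was not tested.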
